A study of Mus musculus with 20 samples.

Results

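The livers of wild-type male mice were compared after 7 weeks on a Western diet or on normal chow, by messenger RNA level across the genome. The samples were all those titled as wild-type liver on either diet, 5 mice per diet and 10 of the 20 mice of the series. All mice were males aged 28 weeks on a mixed Sv129/C57Bl6J background, and the 5 of each group were separate animals per the design text. The chow was the 2016 Teklad Global 16% Protein Rodent Diet. The Western diet was TD.88051, a cocoa butter diet combined with Purina mouse chow; the labels name the product and not its fat, cholesterol or bile salt content. The other 10 mice carried an LXR alpha/beta double knockout on the same background, with 5 on each diet, and they are used only to ask whether the response to diet differed by genotype. RNA came from fragments of the large lobe of the liver, a whole-organ sample in which fewer cells of a type and less RNA per cell cannot be told apart. The labels do not say what share of each mouse's genome came from each strain.

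The liver X receptors, LXR alpha (gene Nr1h3) and LXR beta (Nr1h2), are nuclear receptors that bind oxidised cholesterol and switch on genes for cholesterol export and, through the transcription factor SREBP-1c (gene Srebf1), for fatty acid synthesis. Another sensor works in the opposite sense. When membranes of the endoplasmic reticulum are rich in cholesterol, Insig proteins hold SREBP-2 (Srebf2) there, and its targets, among them the enzymes of cholesterol synthesis, are transcribed less. The liver also disposes of cholesterol by turning it into bile acids, and returning bile acids repress the first enzymes of that route through the receptor FXR and the repressor SHP (Nr0b2).

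Each mouse was measured on 1 single-colour Agilent array. A value below is the log2 signal of a gene's probe relative to the 75th percentile of its array, so 0 is that percentile, a step of 1 is a 2-fold change, and levels of different genes are not comparable. The 75th percentile itself was 161.2 to 265.5 intensity units on the normal-diet arrays and 249.5 to 318.1 on the Western-diet arrays, and 53.6% to 65.01% of probes per array were well above background. Arrays correlated across genes with r of 0.9742 to 0.9893 within the normal diet, 0.9625 to 0.9896 within the Western diet and 0.9528 to 0.9819 between diets. In a principal component analysis of the wild-type arrays, PC1 (39% of variance) did not fully separate the diets. Western-diet mice 1, 2 and 4 scored 64, 40.5 and 51.3 on PC1, and the normal-diet mice -42.6 to -7.47. Western-diet mouse 3, at -15.7, lay inside that normal-diet range, and Western-diet mouse 5, at -2.69, just above it. On PC2 (21.9%), normal-diet mouse 4 stood apart at 62.2, and its array was also the dimmest. Mice 2, 3, 4 and 5 of the 2 diets shared a slide number by number, and mouse 1 of each diet was on a slide with knockout mice and no wild-type mouse of the other diet, so 4 slides gave a difference between diets within a slide. Hepatocyte markers were bright on every array, and 13 of the 14 listed were measured. The targeted receptors were read in every mouse: Nr1h3 ranged from 3.91 to 4.76 over the 10 wild-type mice and from -5.32 to -3.64 over the 10 knockout mice, and Nr1h2 from 0.66 to 1.08 and from -5.65 to -3.47. The wild-type diet groups overlapped for both receptors.

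Of 16120 genes tested, 1090 (6.76%) differed between diets in wild-type liver at an adjusted p under 0.05 (limma with Benjamini-Hochberg adjustment over all genes tested). The Western diet raised 572 genes, 3.55% of those tested, and lowered 518, 3.21% of those tested. A change of at least 2-fold was seen for 252 rises and 219 falls, and one of at least 4-fold for 70 and 57. Called genes had a median absolute difference of 0.892 on the log2 scale against 0.216 over all genes tested. An unadjusted p under 0.05 (limma) was found for 3305 of the 16120 genes tested, the background for counts of such p below. The 5 values of one diet did not overlap the 5 of the other for 828 of the called genes, and for 8.57% of all genes tested (4.27% with higher and 4.3% with lower Western-diet values). Of 1062 called genes with a value on each of the 4 shared slides, 998 (94%) differed in the same direction on every slide. The genes were called on these same arrays, so nothing is read from that share. The split between higher and lower genes depended on scaling: 52.5% of called genes were higher here, but 66.9% (363 higher and 180 lower) when arrays were centred on their median, which moved the median difference of all genes from -0.024 to 0.09.

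**Figure D1:**
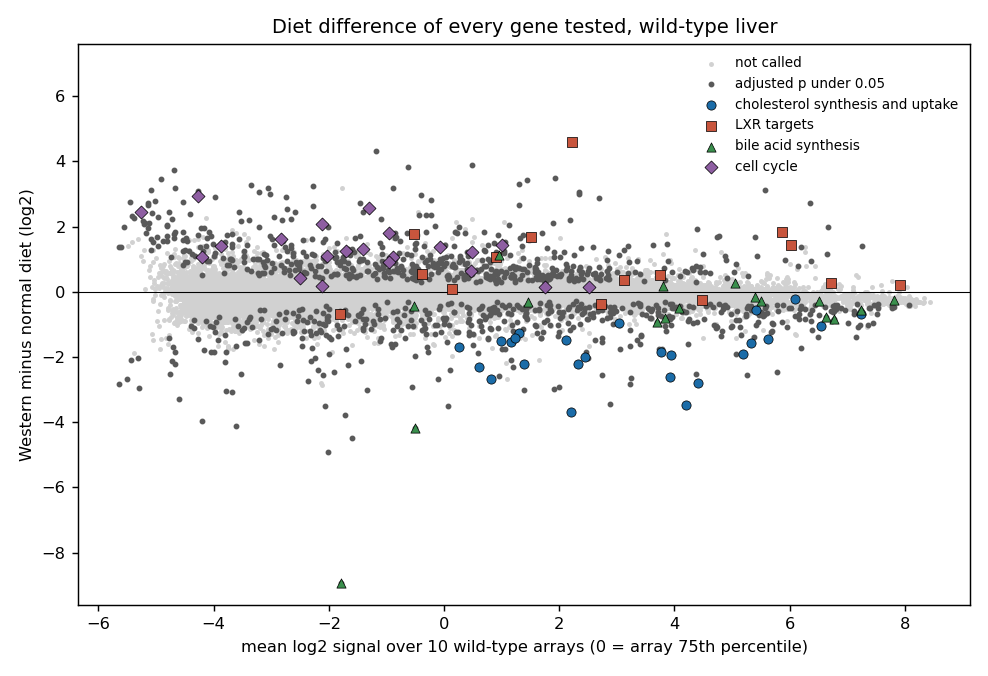
Each point is 1 of the 16120 genes tested, with its mean log2 signal over the 10 wild-type arrays on the x axis (0 is the array's 75th percentile) and its Western minus normal diet difference (log2) on the y axis. Grey points were not called, dark points passed an adjusted p of 0.05, and coloured symbols mark 4 gene lists; cholesterol synthesis genes (circles) all lie below 0 and cell cycle genes (diamonds) above it.

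Genes of cholesterol synthesis were lower on the Western diet almost throughout the pathway. Of the 25 genes tested for cholesterol synthesis and uptake, 23 fell and 0 rose on the Western diet (background 3.21% lower and 3.55% higher), with a median difference of -1.7 against -0.0242 over all genes. The called members ranged from a 1.59-fold fall for Ebp to a 12.9-fold fall for Sqle. Of the 2 members that did not pass, Acat2 had spots that were mostly flagged as outliers, with 1 and 2 usable values. No member had a positive difference.

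Promoters of called members are shown because these genes moved together; each is the 250 bases before the annotated start, from RefSeq on GRCm38.p6, read 5′ to 3′ on the gene's own strand. Capitals mark 2 motifs searched on both strands: the CCAAT box (CCAAT, or ATTGG where it lies on the other strand), which the factor NF-Y binds, and the sterol regulatory element (TCACNCCAC), which SREBP proteins bind. The windows are chr13:119690101-119690350 (plus strand) for Hmgcs1, chr13:8885356-8885605 (plus) for Idi1, chr5:4104698-4104947 (minus) for Cyp51 and chrX:72918271-72918520 (plus) for Nsdhl.
Hmgcs1: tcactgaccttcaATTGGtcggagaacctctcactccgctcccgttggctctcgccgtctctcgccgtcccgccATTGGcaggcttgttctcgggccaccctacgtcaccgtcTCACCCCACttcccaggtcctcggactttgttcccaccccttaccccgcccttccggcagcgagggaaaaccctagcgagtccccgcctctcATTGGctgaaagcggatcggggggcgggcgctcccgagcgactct
Idi1: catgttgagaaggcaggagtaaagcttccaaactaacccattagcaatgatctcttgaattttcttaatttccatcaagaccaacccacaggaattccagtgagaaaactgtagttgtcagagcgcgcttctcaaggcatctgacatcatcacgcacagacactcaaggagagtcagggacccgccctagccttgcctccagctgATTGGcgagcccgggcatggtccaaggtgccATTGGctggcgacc
Cyp51: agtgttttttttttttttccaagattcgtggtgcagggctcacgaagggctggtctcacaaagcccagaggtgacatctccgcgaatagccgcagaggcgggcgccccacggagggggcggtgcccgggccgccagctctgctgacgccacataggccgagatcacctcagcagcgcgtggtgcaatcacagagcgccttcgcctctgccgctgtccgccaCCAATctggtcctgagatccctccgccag
Nsdhl: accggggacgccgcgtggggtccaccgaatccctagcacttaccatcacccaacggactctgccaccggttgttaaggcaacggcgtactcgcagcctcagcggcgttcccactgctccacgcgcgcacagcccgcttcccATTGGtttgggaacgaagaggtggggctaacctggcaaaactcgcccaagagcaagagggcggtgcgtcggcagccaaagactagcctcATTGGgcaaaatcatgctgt
The table of promoters held 19 windows, from 250 bases before to 50 after a start, for 16 of the 23 called genes. A CCAAT box occurred in 16 of the 19 (84.2%), and in at least 1 window of each of the 16 genes, against 37.4% of all 32851 promoters in the table and 42.2% of the 10661 tested genes with a promoter. The sterol element, in these letters, occurred in 1 of 19, that of Hmgcs1, against 1.24% of all promoters. An E-box (CACGTG) occurred in 4 of 19 (21.1%), against 7.15%. No motif overlapped another in the windows shown, and these shares are descriptions with no test.

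The early steps of the pathway make mevalonate and its isoprenoid products. Hmgcs1, which condenses acetyl units into HMG-CoA, had usable values of 6.13, 6.69 and 5.61 in normal-diet mice 3, 4 and 5 and of 4.27, 4.09, 4.36 and 4.27 in Western-diet mice 1, 3, 4 and 5. All 4 Western-diet values lay below the 3 normal-diet values. It fell by 1.90 ± 0.28 (adjusted p = 0.000706); its other 2 probes differed by -1.64 and -2.32, and the mean of the 3 was not called. Idi1, which isomerises the isoprene unit, was at 5.73, 5.38, 5.00, 5.32 and 4.75 on the normal diet and at 2.40, 2.98, 2.47, 2.01 and 3.18 on the Western diet. It fell 6.17-fold (-2.62 ± 0.33, adjusted p = 6.43e-05, limma), and the groups did not overlap. The array's annotation places that probe on chromosome 2, while the promoter shown for Idi1 is on chromosome 13. The gene's other tested probe gave -2.83 ± 0.31. Fdps, which makes farnesyl diphosphate, fell 11-fold (-3.46 ± 0.32, adjusted p = 3.32e-06), from 5.68 to 6.15 on the normal diet to 1.34 to 3.34 on the Western diet. Mvk, Pmvk and Mvd, the kinases and decarboxylase just before Idi1, fell as well, by 1.70, 1.93 and 2.31.

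The squalene and sterol steps fell too. Sqle, the squalene epoxidase that commits carbon to sterols, was at 4.4, 4.19, 3.86, 4.28 and 3.51 in normal-diet mice 1 to 5 and at 1.00, 0.70, -0.54, 0.27 and 0.35 in Western-diet mice 1 to 5. The groups did not overlap, and the difference was -3.69 ± 0.36 (adjusted p = 4.23e-06). Msmo1, a sterol demethylase, fell 6.91-fold (-2.79 ± 0.26, adjusted p = 3.32e-06), from 4.88 to 6.40 down to 2.25 to 3.45. Nsdhl, which acts in the same demethylation, fell 6.31-fold (-2.66 ± 0.27, adjusted p = 6.32e-06), from 1.73 to 2.60 down to -1.22 to 0.30. Cyp51, the lanosterol demethylase, was at 2.77, 2.68, 2.31, 2.47 and 2.17 on the normal diet and at 0.28, 0.73, -0.03, -0.41 and 0.80 on the Western diet, a 4.61-fold fall (-2.21 ± 0.32, adjusted p = 0.000245). All 4 of these genes separated the diets without overlap and fell on each of the 4 shared slides. Dhcr7, an enzyme of the last steps, fell by 1.84.

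**Figure D2:**
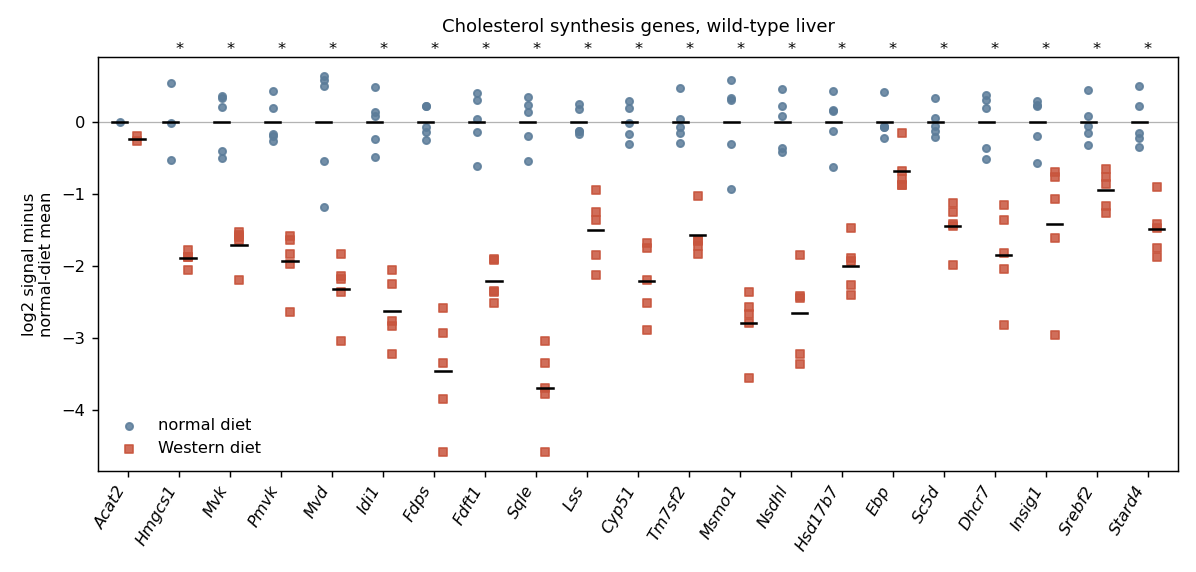
Each symbol is 1 mouse: log2 signal minus the gene's normal-diet mean, for 21 tested genes of cholesterol synthesis and its control in pathway order, with circles for normal diet, squares for Western diet, bars for group means and an asterisk for an adjusted p under 0.05. The 20 genes with an asterisk all have lower means on the Western diet, and Sqle and Fdps lie lowest.

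The regulators of the pathway fell with it. Srebf2, the gene of SREBP-2, was at 3.96, 3.45, 3.35, 3.59 and 3.19 on the normal diet and at 2.74, 2.64, 2.24, 2.85 and 2.34 on the Western diet, a 1.93-fold fall (-0.95 ± 0.15, adjusted p = 0.000462) without overlap. Stard4, a cytosolic cholesterol carrier, fell 2.8-fold (-1.48 ± 0.22, adjusted p = 0.000319). Insig1, an SREBP target that retains SREBPs in the endoplasmic reticulum, was at 1.38 to 2.24 on the normal diet and at -1.02 to 1.25 on the Western diet (-1.42 ± 0.39, adjusted p = 0.0325); its relative Insig2 was at -0.47 ± 0.26 and did not pass. Western-diet mouse 3 was the lowest for Insig1, and its call was lost without any 1 of normal-diet mice 1 to 4 or Western-diet mice 3 and 4. For the whole list, 18 to 23 members were called lower under the alternatives run, and 22 when Western-diet mice 1 and 2 were both left out.

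LXR target genes responded in the opposite direction. Of 15 tested, 7 rose and 0 fell (background 3.55% and 3.21%): Abca1, Abcg1, Abcg5, Abcg8, Srebf1, Lpl and Rnf145, with a list median of 0.51. With Western-diet mice 1 and 2 left out, 7 of the 15 were also called. Abcg5 and Abcg8 are the subunits of the transporter that moves sterols into bile. Abcg8 was at 0.51, 0.67, 0.50, 0.93 and 0.75 in normal-diet mice 1 to 5 and at 2.28, 1.96, 2.02, 2.73 and 2.72 in Western-diet mice 1 to 5. The groups did not overlap, and the rise was 3.19-fold (1.67 ± 0.29, adjusted p = 0.00144). Abcg5 had usable values of 4.80, 5.28 and 4.81 in normal-diet mice 3 to 5 and of 6.59, 6.36, 7.30 and 6.88 in Western-diet mice 2 to 5, a 3.53-fold rise (1.82 ± 0.36, adjusted p = 0.00882) without overlap. Abcg1, which loads cholesterol onto HDL, rose 3.43-fold (1.78 ± 0.29, adjusted p = 0.000904), from -1.67 to -1.10 up to -0.26 to 1.01. Abca1, which starts HDL formation, was at 3.68, 3.63, 3.48, 3.45 and 3.23 on the normal diet and at 4.17, 3.65, 4.07, 4.02 and 4.11 on the Western diet. Western-diet mouse 2 lay within the normal-diet range, and the difference was 0.51 ± 0.13 (adjusted p = 0.0197); it was 0.02 on the slide that held mouse 2 of each diet, and the call was lost without normal-diet mouse 5 or Western-diet mouse 1.

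The promoter of Abcg8 is shown beside these values because, like the genes that fell, it holds CCAAT boxes, the 2 stretches in capitals. The window is chr17:84682871-84683120 on the plus strand of GRCm38.p6 (RefSeq).
Abcg8: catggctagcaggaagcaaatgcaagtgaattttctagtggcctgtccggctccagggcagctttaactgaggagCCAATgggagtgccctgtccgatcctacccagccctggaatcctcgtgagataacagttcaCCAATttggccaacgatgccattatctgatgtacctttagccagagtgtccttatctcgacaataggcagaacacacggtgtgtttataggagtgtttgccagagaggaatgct
The LXR response element is AGGTCA repeated after a gap of 4 bases, called DR4. In those exact letters it occurred in 0 of the 10 promoter windows of the 5 called LXR target genes that the table held, and in 0.0152% of all promoters. That says only that these letters are not in windows so close to a start. A CCAAT box was in 4 of the 10, against 37.4% of all promoters.

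Lpl, which releases fatty acids from lipoproteins and is little expressed in adult hepatocytes, had the largest rise of all genes tested. It was at -0.37, 0.02, -0.43, 0.10 and 0.27 in normal-diet mice 1 to 5 and at 4.67, 4.75, 4.62, 4.16 and 4.4 in Western-diet mice 1 to 5. The groups did not overlap and neither was widely spread, a 24.3-fold rise (4.60 ± 0.32, adjusted p = 2e-07), and the gene's other probe gave 4.58. Srebf1 was at 5.2, 5.23, 5.71, 5.55 and 4.86 on the normal diet and at 7.16, 6.21, 5.91, 7.33 and 7.11 on the Western diet, a 2.7-fold rise (1.43 ± 0.23, adjusted p = 0.000783). Western-diet mice 2 and 3 were lower than the other 3, with differences of 0.98 and 0.20 on their slides against 1.78 and 2.26 on the others. LXR targets that did not pass included Mylip at 0.10 ± 0.20, Lpcat3 at -0.39 ± 0.16, Pltp at -0.69 ± 0.45 and Scd1 at 0.22 ± 0.44; Scd1 was saturated on 4 of 5 Western-diet arrays and 1 normal-diet array, which limits what could be read from it.

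**Figure D3:**
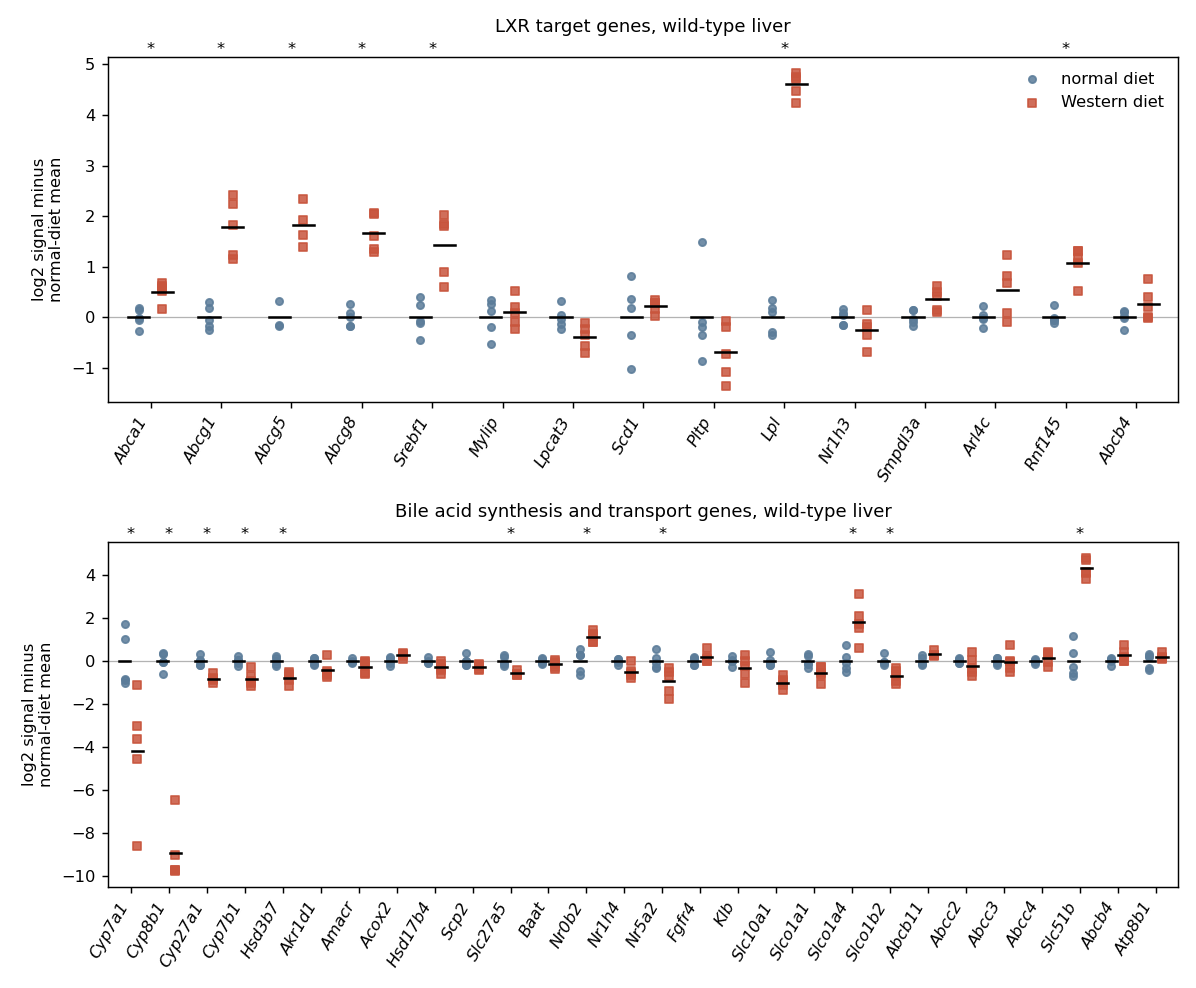
Each symbol is 1 mouse: log2 signal minus the gene's normal-diet mean, with circles for normal diet, squares for Western diet, bars for group means and an asterisk for an adjusted p under 0.05. The upper panel holds the 15 tested LXR targets, with Lpl highest at 4.60, and the lower panel the bile acid genes, with Cyp8b1 lowest at -8.93 and Slc51b highest at 4.31.

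Fatty acid synthesis genes fell more often than they rose. Of 24 tested, 8 fell and 2 rose (background 3.21% and 3.55%), Scd2 and Srebf1 itself, with a median of -0.33. Acss2, which makes acetyl-CoA from acetate, fell 3.35-fold (-1.74 ± 0.26, adjusted p = 0.000383), from 4.16 to 5.36 down to 2.40 to 3.22. The elongase of polyunsaturated chains, Elovl5, fell 2.65-fold (-1.4 ± 0.21, adjusted p = 0.000329), and Acacb, the mitochondrial acetyl-CoA carboxylase, fell 2.51-fold (-1.33 ± 0.30, adjusted p = 0.0113), with -0.78 from its other probe. The desaturases Fads1 and Fads2 fell by 1.21 and 1.05, neither with overlap between diets. Acly, which makes cytosolic acetyl-CoA from citrate, fell by 0.96 ± 0.21 with Western-diet mouse 1 inside the normal-diet range; its other probe gave -0.26 ± 0.54. Elovl6, which elongates palmitate, fell by 0.99 ± 0.23 with Western-diet mouse 5 inside it. The remaining called member was Slc25a1. The central enzymes did not pass: Acaca differed by -0.24 ± 0.41 (its other 2 probes by 0.24 and 0.17), Fasn by -0.28 ± 0.47 on 3 usable values per diet, Me1 by -0.51 ± 0.47, Thrsp by -1.41 ± 0.57 (adjusted p = 0.163) and Pnpla3 by 0.84 ± 0.70. Pnpla3, a lipase of lipid droplets, was at 1.01 and 0.08 in Western-diet mice 1 and 2 and at -2.54, -2.35 and -2.48 in mice 3 to 5. Under the alternatives run, 3 to 8 members of the list were called lower.

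Genes of bile acid synthesis were mostly lower. Of 17 genes tested, 7 fell and 1, Nr0b2, rose (background 3.21% and 3.55%), with a median of -0.43. Cyp8b1, the 12-alpha-hydroxylase that sets the share of cholic acid, showed the largest difference of all genes tested. It was at 3.04, 2.64, 2.08, 3.02 and 2.63 in normal-diet mice 1 to 5 and at -6.33, -7.03, -7.04, -3.78 and -7.07 in Western-diet mice 1 to 5. In the Western-diet group it was well above background on 1 array, that of mouse 4, so the other 4 values lie at the floor of the assay and the fitted difference of -8.93 ± 0.75 (adjusted p = 2.22e-06) is not a precise size. Cyp7a1, the rate-limiting enzyme of the route, was at 0.54, 3.32, 0.71, 2.59 and 0.74 on the normal diet and at -1.42, -7.02, -2.05, 0.46 and -2.97 on the Western diet. The groups did not overlap, but Western-diet mouse 4 was close to the lower normal-diet mice, and 1 Western-diet array was not well above background. The difference was -4.18 ± 1.12 (adjusted p = 0.03), and the gene's other probe gave -3.31; the call was lost without any 1 of normal-diet mice 2 and 4 or Western-diet mice 2 and 5.

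The other enzymes differed by less. Cyp27a1, which starts the alternative route, fell 1.76-fold (-0.81 ± 0.16, adjusted p = 0.00471) without overlap. Cyp7b1, the next enzyme of that route, was at 7.23, 7.4, 7.07, 7.22 and 6.95 on the normal diet and at 6.02, 6.14, 6.26, 6.88 and 6.49 on the Western diet (-0.82 ± 0.22, adjusted p = 0.0352). Its groups did not overlap, but the call was lost in 15 of the 27 alternatives, among them without any 1 of normal-diet mice 1 to 4 or Western-diet mice 1 to 3. Slc27a5, which activates bile acids with coenzyme A, fell by 0.57 ± 0.14, a call lost without normal-diet mouse 2 or 4 or Western-diet mouse 2. Nr5a2, the receptor that drives Cyp7a1 and Cyp8b1, fell by 0.93 ± 0.22 with Western-diet mouse 5 inside the normal-diet range, a call lost without normal-diet mouse 4 or Western-diet mouse 1. Hsd3b7 was the remaining called member. Nr0b2, the gene of SHP, was at -0.08, -0.26, 0.67, 0.94 and 0.69 on the normal diet and at 1.27, 1.65, 1.26, 1.81 and 1.57 on the Western diet. It rose 2.18-fold (1.12 ± 0.32, adjusted p = 0.041) without overlap, and the call was lost without any 1 of 8 of the 10 mice (all but normal-diet mice 3 and 4). Of the list, 3 members were called lower without normal-diet mouse 4, 4 without normal-diet mouse 2 or Western-diet mouse 2, and 2 without Western-diet mice 1 and 2 together. With arrays scaled to their median 2 were called lower, and with normexp background correction 1.

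Among 11 bile acid transporters tested, 2 rose, Slc51b and Slco1a4, and 1, Slco1b2, fell (background 3.55% and 3.21%). Slc51b, a subunit of the exporter that returns bile acids to blood, was at -4.05, -2.15, -3.89, -2.96 and -3.61 in normal-diet mice 1 to 5 and at 0.82, 1.47, 1.36, 0.74 and 0.48 in Western-diet mice 1 to 5. The rise was 19.8-fold (4.31 ± 0.37, adjusted p = 2.22e-06); its partner Slc51a was not well above background on any wild-type array. Slco1a4, an uptake transporter, rose 3.51-fold (1.81 ± 0.32, adjusted p = 0.00176), with Western-diet mouse 4 inside the normal-diet range. Slco1b2, another uptake transporter, fell by 0.69 ± 0.17 (adjusted p = 0.0171), a call lost without normal-diet mouse 4 or Western-diet mouse 1 or 2. The main uptake carrier Slc10a1 was at 5.03 to 5.63 on the normal diet and at 3.87 to 4.56 on the Western diet, without overlap, yet its difference of -1.0 ± 0.30 did not pass (adjusted p = 0.0515); it was called in 8 of the 27 alternatives, including both slide blocks and both replicate blocks. The canalicular bile salt pump Abcb11 differed by 0.32 ± 0.12 and did not pass either.

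Fewer genes of fat storage, transport and oxidation were called. Of 22 lipid droplet and triglyceride storage genes, 5 fell and 0 rose (background 3.21% and 3.55%), and 1 to 6 were called lower under the alternatives run. Lpin1, a phosphatidate phosphatase, fell 4.11-fold (-2.04 ± 0.45, adjusted p = 0.00938), and Mogat1, a monoacylglycerol acyltransferase, 4.13-fold (-2.04 ± 0.44, adjusted p = 0.00746). Pparg, the adipogenic receptor, fell by 1.01 ± 0.24, and its call was lost without normal-diet mouse 4. Plin2, a droplet coat protein, fell by 0.50 ± 0.14 and Dgat2, the last enzyme of triglyceride synthesis, by 0.51 ± 0.15; the Plin2 call was lost without any mouse but normal-diet mouse 2 or Western-diet mouse 3 or 4, and the Dgat2 call without any mouse but Western-diet mouse 4. The list had 2 calls without normal-diet mouse 4 and 3 without any 1 of normal-diet mice 1, 3 and 5 or Western-diet mice 1, 2 and 5. Cidec and Cidea, droplet fusion proteins, differed by 0.05 ± 0.36 and -0.50 ± 0.49 and did not pass. Of 21 lipoprotein genes, Lpl rose and 3 fell: Apom by 0.69 ± 0.14, Apoa1 by 0.48 ± 0.13 and Angptl4, an inhibitor of lipoprotein lipase, by 1.73 ± 0.32. Angptl4 had 2 usable Western-diet values, 4.89 and 5.78, against 6.58 to 7.46 on the normal diet, and its call was lost without Western-diet mouse 1; that of Apoa1 was lost without any 1 of normal-diet mice 1, 4 and 5 or any Western-diet mouse.

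Of 30 genes of fatty acid oxidation, 1 rose and 2 fell, counts near the background of 3.55% and 3.21%, and the median was -0.20. An unadjusted p under 0.05 (limma) was found for 14 of the 30, 11 lower and 3 higher, against 3305 of the 16120 genes tested. Ehhadh, a peroxisomal enzyme, rose 1.94-fold (0.96 ± 0.26, adjusted p = 0.0311), and Ppargc1a, a coactivator induced on fasting, fell 2.24-fold (-1.16 ± 0.29, adjusted p = 0.0203). Both calls were lost without some single mice: Ppargc1a without normal-diet mouse 2 or 4 or Western-diet mouse 2, and Ehhadh without any mouse but normal-diet mouse 5 or Western-diet mouse 4. Other PPAR alpha genes did not pass: Ppara at -0.65 ± 0.25, Cyp4a10 at 0.06 ± 0.24, Cyp4a14 at 0.66 ± 1.05 and Fgf21 at -1.21 ± 0.81. Of 14 genes of fatty acid uptake, 3 fell: Slc27a5, Acsl5 by 1.08 ± 0.17 and Fabp5 by 1.85 ± 0.54. The Fabp5 call was lost without any mouse but normal-diet mouse 4 or Western-diet mouse 3 or 5. Cd36 differed by 0.33 ± 0.37. Of 15 genes of cholesterol esterification and trafficking, 2 rose: Soat2, the hepatic cholesterol acyltransferase, by 0.61 ± 0.17 (adjusted p = 0.0356), and Gramd1b, a cholesterol carrier between membranes, by 1.15 ± 0.29 (adjusted p = 0.0212); the Soat2 call was lost without any 1 of normal-diet mice 1, 2, 3 and 5 or Western-diet mice 2, 4 and 5, and the Gramd1b call without mouse 1 or 4 of either diet. Of 18 sphingolipid genes only Smpd3, a neutral sphingomyelinase, rose, by 1.76 ± 0.47 (its other 2 probes gave 1.80 and 0.69), a call lost without any 1 of normal-diet mice 1, 3 and 5 or Western-diet mice 1, 2 and 4.

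Some genes of amino acid and methyl group metabolism fell. Of 20 genes of amino acid breakdown and the urea cycle, 5 fell and 0 rose (background 3.21% and 3.55%; 2 to 6 lower under the alternatives run), with a median of -0.39: Oat, Got1, Glul, Gls2 and Hpd. Oat, the ornithine aminotransferase, was at 6.66, 7.05, 6.54, 6.66 and 5.77 in normal-diet mice 1 to 5 and at 3.39, 3.12, 4.36, 5.06 and 4.01 in Western-diet mice 1 to 5, a 5.85-fold fall (-2.55 ± 0.31, adjusted p = 4.74e-05) without overlap. Got1, the cytosolic aspartate aminotransferase, fell 3.78-fold (-1.92 ± 0.33, adjusted p = 0.00149). Glul, the glutamine synthetase of hepatocytes around the central vein, fell 2.33-fold (-1.22 ± 0.23, adjusted p = 0.00266), and Gls2, a liver glutaminase, 1.79-fold (-0.84 ± 0.19, adjusted p = 0.011). Western-diet mice 1 and 2 had the lowest Oat and Glul values. Of 15 genes of phosphatidylcholine and methyl metabolism, 4 fell, but 0 did with arrays scaled to their median or with normexp background correction, 2 with quantile normalization or the series matrix values and 1 without Western-diet mice 1 and 2. Mat1a, which makes S-adenosylmethionine, fell by 1.08 ± 0.22, Gnmt by 0.96 ± 0.20, Bhmt by 1.39 ± 0.33 and Ahcy by 0.68 ± 0.18. Gnmt was saturated on 4 normal-diet arrays and Bhmt on 3, and the Ahcy call was lost without normal-diet mouse 4 or 5 or Western-diet mouse 1 or 2. Of 19 genes of glycolysis, gluconeogenesis and glycogen, only Pfkfb1 fell (-1.41 ± 0.27, adjusted p = 0.00292), and 3 did without normal-diet mouse 1; no probe was matched to Pck1.

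Enzymes that handle foreign compounds moved both ways. Of 24 cytochrome P450 genes of families 1 to 3 and their regulators, 3 rose and 6 fell (background 3.55% and 3.21%). The rises were those of Cyp3a11, Cyp3a25 and Cyp3a41a, and the falls those of Cyp1a2, Cyp2c29, Cyp2c37, Cyp2c39, Cyp2c54 and the receptor Nr1i3. Cyp3a11, the main mouse CYP3A enzyme, was at 5.49, 4.65, 6.15, 6.11 and 5.94 on the normal diet and at 7.49 to 7.84 on the Western diet. It was saturated on all 5 Western-diet arrays, so its rise was at least 3.98-fold (adjusted p = 2.15e-05). Its relatives Cyp3a44 and Cyp3a16, which female livers express more, differed by 2.72 ± 0.26 (adjusted p = 3.52e-06) and 3.11 ± 0.32 (adjusted p = 8.85e-06), and both rose without overlap between diets. Cyp3a44 was saturated on 2 of 5 Western-diet arrays and Cyp3a16 on 1, so neither difference is a precise size; Cyp3a41a was saturated on all 5. Genes of this family are nearly alike in sequence, so the probes may not tell them apart. Cyp2c54 fell 8.11-fold (-3.02 ± 0.56, adjusted p = 0.00261, limma), from 2.33 to 3.13 down to -0.65 to 0.67. Cyp2c37 and Cyp2c39 fell by 2.63 ± 0.59 and 1.85 ± 0.52, both with overlap between diets. Cyp2c37 was at 3.35, 3.53, 0.61, 1.46 and 0.68 in Western-diet mice 1 to 5, against 3.14 to 5.30 on the normal diet. The Cyp2c39 call was lost without any mouse but normal-diet mouse 4 or Western-diet mouse 2, and this family also shares sequence.

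Of 24 conjugation genes, 3 rose and 3 fell (background 3.55% and 3.21%). The glutathione transferases Gsta2 and Gsta4 rose 8.03-fold (3.01 ± 0.42, adjusted p = 0.000203) and 4.31-fold (2.11 ± 0.19, adjusted p = 2.53e-06). Gsta2 was at 4.50 and 5.44 in Western-diet mice 1 and 2 and at 3.32, 3.39 and 2.61 in mice 3 to 5, all above the normal-diet range of 0.08 to 1.48. The carboxylesterase Ces2a rose 3.3-fold (1.72 ± 0.31, adjusted p = 0.00183). Sult1e1, the oestrogen sulfotransferase, fell by 2.69 ± 0.68 (adjusted p = 0.0219), and its call was lost without normal-diet mouse 4 or Western-diet mouse 1 or 2; Sult1a1 and Aldh1a1 were the other 2 that fell. Stress lists had 1 call each, near the background of 3.55% higher and 3.21% lower: Osgin1 rose (1.38 ± 0.34) among 14 NRF2 and glutathione genes, Hspb1, a small heat shock protein, rose 4.6-fold (2.20 ± 0.40, adjusted p = 0.00201) among 14 heat shock genes, and Asns fell (-1.41 ± 0.38, adjusted p = 0.0301) among 20 genes of the unfolded protein and integrated stress responses. The Osgin1 call was lost without Western-diet mouse 2 and that of Asns without any 1 of normal-diet mice 1 to 4 or Western-diet mice 3 to 5.

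Genes that differ between the sexes changed in both directions in these male mice. Of 14 female-biased genes tested, 4 rose (Cyp3a16, Cyp3a41a, Cyp3a44 and Prom1) and 1, Cyp17a1, fell (-1.62 ± 0.30, adjusted p = 0.00222; background 3.55% higher and 3.21% lower). Prom1 entered the test only through the Western-diet group, where 4 of 5 arrays were well above background against 0 on the normal diet. Among the 12 genes well above background on all 10 arrays 3 rose, and the list median was -0.11 there against 0.29 over the 14. Of 16 male-biased genes, 2 fell, Cyp7b1 and Susd4. Susd4 was at 3.54, 3.63, 3.01, 3.41 and 3.35 in normal-diet mice 1 to 5 and at 0.42, -0.18, 0.37, 0.85 and 0.64 in Western-diet mice 1 to 5, a 7.83-fold fall (-2.97 ± 0.36, adjusted p = 4.43e-05) without overlap. Igf1, a growth hormone target, differed by -0.54 ± 0.17 and did not pass (adjusted p = 0.0568); its other 2 probes gave -0.49 and 0.61. Of 16 clock genes 0 passed with limma and 2 had an unadjusted p under 0.05, against 3305 of the 16120 genes tested. The largest differences were those of Usp2 (0.97 ± 0.40) and Per2 (0.69 ± 0.33). The other probe of Per2 gave -0.76 ± 0.37, and the list median was -0.03.

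Cell cycle genes were higher on the Western diet. Of 21 tested, 10 rose and 0 fell (background 3.55% and 3.21%): Mki67, Cdk1, Ccna2, Ccnb1, Ccnb2, Ccnd1, Birc5, Plk1, Foxm1 and Cdc20, with a list median of 1.24. Mki67, a marker of cycling cells, was at -3.57, -2.78, -3.15, -3.54 and -2.78 in normal-diet mice 1 to 5 and at -0.54, -0.54, -2.70, -0.34 and -1.25 in Western-diet mice 1 to 5. Western-diet mouse 3 was close to the normal-diet mice and the other 4 were well above them; the rise was 4.25-fold (2.09 ± 0.41, adjusted p = 0.00358). Cdc20, which triggers anaphase, had the same mouse at -2.24, inside the normal-diet range, and the others at 0.00 to 1.06, against -3.16 to -2.12 on the normal diet (2.56 ± 0.52, adjusted p = 0.00489). Cdk1 and Ccnb1, the kinase and cyclin of mitotic entry, were not well above background on any normal-diet array, and rose at least 3.72-fold (adjusted p = 0.00102) and at least 1.63-fold (adjusted p = 0.0315); the Ccnb1 call was lost without any mouse but normal-diet mouse 5 or Western-diet mouse 3. Of the 16 members well above background on all 10 arrays, 6 rose. Over the list, the median deviation from the normal-diet mean was 1.41, 1.56, 0.21, 1.55 and 1.14 in Western-diet mice 1 to 5 and -0.26 to 0.22 in the normal-diet mice. The count fell to 2 of 21 without Western-diet mice 1 and 2, ranged from 7 to 12 with single mice left out, and was 0 with normexp background correction, which left 156 genes called in all.

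Markers of immune cells varied from mouse to mouse within a diet. Of 22 Kupffer cell and macrophage genes 0 passed with limma, although 21 had higher means on the Western diet and the list median was 0.83. An unadjusted p under 0.05 (limma) was found for 5 of the 22, against 3305 of the 16120 genes tested. By mouse, the list stood at 1.67, 1.4, 0.07, 0.94 and -0.13 in Western-diet mice 1 to 5 and at -0.27 to 0.75 in the normal-diet mice, of which mouse 2 was highest. Leaving that mouse out gave 1 call, leaving out Western-diet mouse 3 gave 2 and Western-diet mouse 5 gave 3. Cd5l, a macrophage lipoprotein-binding protein, was at 6.08, 5.58, 3.97, 5.47 and 3.95 on the Western diet and at 3.50, 4.80, 3.59, 3.41 and 3.31 on the normal diet, and missed the threshold (1.29 ± 0.39, adjusted p = 0.0512); it was called without normal-diet mouse 2 or Western-diet mouse 3 or 5. Fcgr1, a macrophage Fc receptor, differed by 1.51 ± 0.49 (adjusted p = 0.0735), and was called without Western-diet mouse 3 or 5. Of 11 genes of lipid-associated macrophages, 2 rose and 1 fell (background 3.55% and 3.21%). Spp1 (osteopontin) rose 3.23-fold (1.69 ± 0.39, adjusted p = 0.012, limma) and Cd9 1.94-fold (0.96 ± 0.19, adjusted p = 0.00367, limma), while Fabp5 fell. Spp1 was at 7.27 in Western-diet mouse 2, above the 4.99 to 5.27 of the other 4. Fabp5 also had 1 Western-diet array not well above background.

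Marker lists of neutrophils, lymphocytes, endothelium, stellate cells, adipocytes, red blood cells and pancreas gave 0 calls with limma. Over all genes tested, 3305 of 16120 had an unadjusted p under 0.05 (limma). The 5 neutrophil genes had 0 calls and 2 unadjusted p under 0.05; the largest differences were 1.58 ± 0.61 for S100a8 and 1.46 ± 0.57 for S100a9, and both were called without normal-diet mouse 2. Of 11 T and B cell genes 0 were called and 4 had an unadjusted p under 0.05, with Cd52 at 1.14 ± 0.46 and Ms4a1 at 0.70 ± 0.28. Of 16 endothelial genes 0 were called and 2 had such a p, with Lyve1 at 0.76 ± 0.32 and Vwf at -0.61 ± 0.26. Of 21 stellate cell and fibrosis genes 0 were called and 1 had such a p; Col1a1, a fibrillar collagen, was at 0.77 ± 0.47 and Timp2 at -0.62 ± 0.22. The 3 adipocyte genes had 0 calls and 1 such p, with Car3 at -1.09 ± 0.73 and Lipe at -0.49 ± 0.18. Car3 was called on the 10 wild-type arrays alone and with the replicate block on them, and Lipe on the mean of its probes, of which the other was at -0.94 ± 0.18 (adjusted p = 0.00378 over all probes, limma). The 3 red blood cell genes had 0 calls and 0 such p, with Slc4a1 at 0.26 ± 0.21 and Alas2 at 0.08 ± 0.25, as did the 4 pancreatic genes, with Ctrl at -0.53 ± 0.44 and Amy2a5 at -0.42 ± 0.21.

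Interferon-stimulated genes differed widely among the mice on the Western diet. All 21 tested had higher means on the Western diet and 0 passed with limma, with a list median of 1.04. An unadjusted p under 0.05 (limma) was found for 11 of the 21, against 3305 of the 16120 genes tested. The list stood at 3.43, 1.18, -0.18, 0.55 and 0.35 in Western-diet mice 1 to 5 and at -0.55 to 0.42 in the normal-diet mice. Oas1a, an antiviral enzyme, was at 4.54 and 4.01 in Western-diet mice 1 and 2 and at -1.04, 0.05 and 0.46 in mice 3 to 5, against -1.25 to -0.22 on the normal diet (2.24 ± 0.81, adjusted p = 0.113). Ifi44 had the same split, with 3.41 and 3.18 in mice 1 and 2 and -3.10, -2.47 and -1.90 in mice 3 to 5 (3.19 ± 1.08, adjusted p = 0.0898). Mice 1 and 2 also had the 2 highest macrophage and neutrophil list levels among the Western-diet mice. With Western-diet mouse 3 left out, 7 of the 21 genes passed, Oas1a and Ifi44 among them. Without Western-diet mice 1 and 2 the list median was 0.19.

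**Figure D4:**
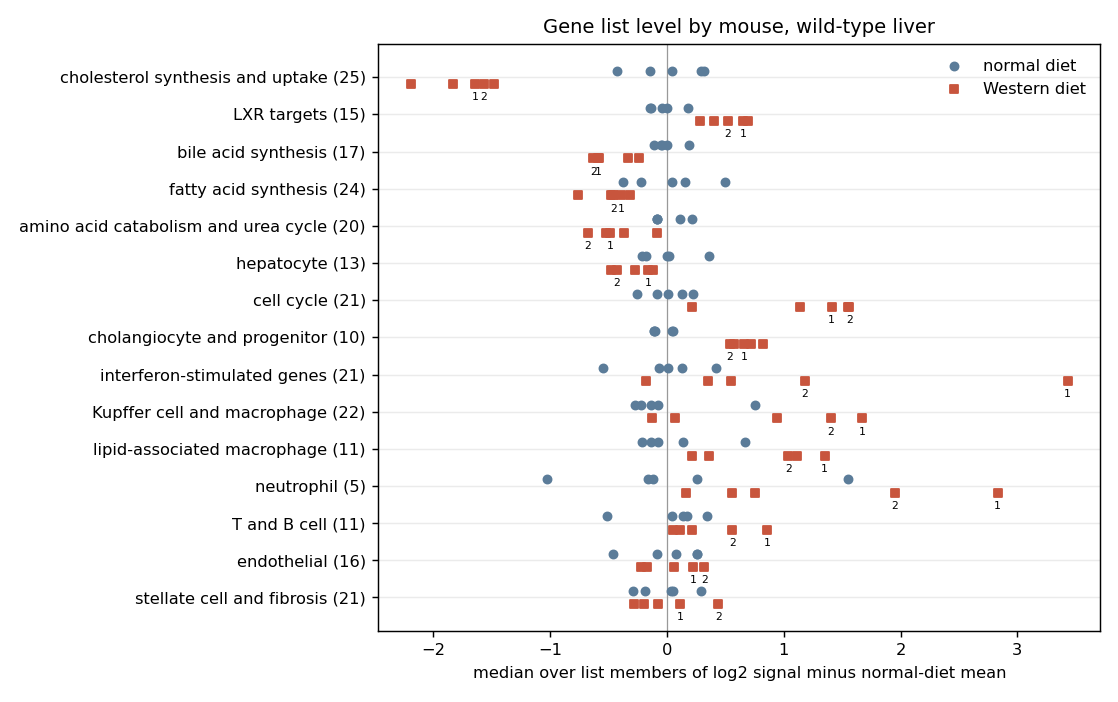
Each symbol is 1 mouse: the median, over the tested members of a gene list (number in brackets), of log2 signal minus the gene's normal-diet mean; circles are normal diet, squares Western diet, and the numbers 1 and 2 mark Western-diet mice 1 and 2. The diets separate without overlap for cholesterol synthesis (-2.19 to -1.48 on the Western diet), LXR targets, bile acid synthesis and the cholangiocyte list. Interferon-stimulated genes reach 3.43 in Western-diet mouse 1 and -0.18 in mouse 3.

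Of 25 acute phase genes tested, 0 rose and 1 fell, near the background of 3.55% higher and 3.21% lower that holds for the next lists too. The fall was that of Serpina3n, by 0.97 ± 0.19 (adjusted p = 0.0035, limma). Of 17 chemokines and cytokines, 3 rose: Ccl9 by 1.12 ± 0.22, Cxcl14 by 2.22 ± 0.44 and Spp1. Of 18 immediate early genes 1, Junb, fell (-0.85 ± 0.24, adjusted p = 0.039), a call lost without any mouse but normal-diet mouse 4 or 5; its other probe gave -0.42 ± 0.35. Of 13 hepatocyte markers 1, Apoa1, fell, and the list median was -0.29, or -0.03 after quantile normalization. Of 10 cholangiocyte and progenitor markers, 3 rose: Krt23, Spp1 and Prom1. Krt23, a keratin of bile duct and stressed liver cells, was at -1.98, -2.58, -1.62, -1.0 and -0.11 on the normal diet and at 2.38, 1.65, 2.24, 3.35 and 2.49 on the Western diet, a 14.7-fold rise (3.88 ± 0.43, adjusted p = 2.08e-05) without overlap. Prom1, a progenitor membrane protein, was not well above background on any normal-diet array, and its rise of at least 1.41-fold was lost without Western-diet mouse 1 or 2. Of the 8 members well above background on all 10 arrays, 2 rose. The list stood at 0.54 to 0.82 in the Western-diet mice and at -0.11 to 0.05 in the normal-diet mice, with the defining gene Cftr not well above background on any wild-type array. In summed signal relative to the array's 75th percentile, cholangiocyte genes were at 14.8 to 26 on the normal diet and 41.5 to 160 on the Western diet, of which Spp1, also in the lipid-associated macrophage and cytokine lists, made up 73.8% to 95.9% on the Western diet and 75% to 91.9% on the normal diet. Without Spp1 the sums were 2.12 to 4.21 on the normal diet and 6.52 to 13.7 on the Western diet. Macrophage genes were at 51.1 to 113 on the normal diet and 62.1 to 237 on the Western diet, and hepatocyte genes at 2100 to 3450 and 1720 to 2190. The part of cell composition in the differences reported here was not tested.

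The 15 rises and 15 falls of greatest size among called genes without overlap include genes outside the lists. Besides Lpl, Slc51b, Krt23 and Cyp3a16, the rises were those of Bhlha15, a transcription factor of secretory cells (3.84 ± 0.65), Ddah1, which degrades methylated arginine (3.42 ± 0.39), Ifi27l2b (3.50 ± 0.54), Phlda2 (3.24 ± 0.43), Epb41l1 (3.18 ± 0.35), Defb1, a beta-defensin (3.17 ± 0.65), and Myo15b (3.07 ± 0.37). Defb1 and Myo15b were well above background on 2 and 3 of the 5 normal-diet arrays. They entered the test only through the Western-diet group, so their differences are not precise sizes. The remaining 4 of the 15 entered in the same way, were at background in the normal-diet group and are bounds. Abcb1a, an export pump, rose at least 3.8-fold, Rundc3b at least 4.05-fold, Cib3 at least 3.17-fold and Dnah1 at least 2.95-fold. Ddah1 was at -0.83 to 0.29 in the normal-diet mice and at 3.0 to 3.37 in the Western-diet mice, with little spread in either group. Bhlha15 was at -1.90, -2.96, -0.41, -3.71 and -3.76 on the normal diet and at 1.04 to 1.92 on the Western diet, so that its spread lay in the normal-diet group. Another probe of 2 of these genes went the other way: it gave -0.27 ± 0.38 for Bhlha15 and -0.59 ± 0.30 for Dnah1, neither called, so these rises rest on 1 probe each. Of the other 2 probes of Epb41l1, one gave 2.27 ± 0.24 and one 0.47 ± 0.27. Among 145 named genes checked for this, 36 were called and had over 1 tested probe. Of the 36, Bhlha15 and Dnah1 were the 2 with a probe of opposite sign, and 9, including them, had a probe that was not called.

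Besides Cyp8b1, Cyp7a1, Sqle, Fdps, Msmo1, Cyp2c54 and Susd4, the falls were those of Srgap3, a GTPase-activating protein, Lrtm1, Htra4, Ren1, Ren2, the non-coding RNA Meg3, Fam89a and Dct. Srgap3 was at 0.30, 0.30, 0.80, 0.94 and -0.12 in normal-diet mice 1 to 5 and at -4.75, -5.09, -4.15, -4.58 and -3.81 in Western-diet mice 1 to 5, where 3 of 5 arrays were well above background (-4.92 ± 0.32, adjusted p = 1.12e-07). Meg3 fell 11.3-fold (-3.50 ± 0.31, adjusted p = 2.53e-06) and Fam89a 7.58-fold (-2.92 ± 0.27, adjusted p = 3.32e-06), each without overlap. Lrtm1 fell 22.2-fold (-4.47 ± 0.59, adjusted p = 0.000107), from -0.94 to 2.23 down to -4.81 to -2.72. Htra4 was not well above background on any Western-diet array and fell at least 7.33-fold. Ren1 and Ren2, renin genes so alike that their probes may not separate them, differed by -3.79 ± 0.62 and -3.50 ± 0.63; in both, normal-diet mice 1 and 5 were lower than the other 3. Dct, an enzyme of melanin synthesis, fell 7.52-fold (-2.91 ± 0.35, adjusted p = 4.43e-05).

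Whether the diet response differed in LXR knockout mice was tested gene by gene with an interaction term, the knockout diet difference minus the wild-type one. Of the 1090 genes called in wild-type mice, 435 had a different diet response in knockout mice (207 that rose and 228 that fell), and 25.9% of all genes tested did (4180 of 16120). The wild-type difference that chose the 1090 genes is also a term of the interaction, so nothing is read from their share. In 158 of the 435 the knockout difference had the opposite sign. Among LXR targets, 5 of the 7 called genes differed. Abcg8 rose by 1.67 in wild-type mice and differed by -1.89 in knockout mice (interaction -3.56, adjusted p = 9.61e-06), Abcg5 by 1.82 and -0.82 (adjusted p = 0.00219), and Srebf1 by 1.43 and -1.20 (adjusted p = 2.04e-05). Abca1, at 0.51 and 0.01, was near the threshold (adjusted p = 0.0459), and Rnf145 was the fifth. Lpl was at 4.60 and 3.98 (interaction -0.62 ± 0.46, adjusted p = 0.36) and Abcg1 at 1.78 and 2.90 (adjusted p = 0.0532), neither called.

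Cholesterol synthesis genes were lower on the Western diet in both genotypes. All 23 called members had a lower mean on the Western diet in knockout mice too. For 20 of them the knockout difference was the larger one, with the interaction called. The interaction was not called for Mvd, Dhcr7 and Srebf2, although Srebf2 also fell more in knockout mice (-1.32 against -0.95). Sqle differed by -3.69 in wild-type and -5.82 in knockout mice (interaction -2.13, adjusted p = 0.00438), and Cyp51 by -2.21 and -5.90 (-3.69, adjusted p = 1.57e-05). Of the 8 called bile acid synthesis genes 4 had an interaction: Cyp27a1, Cyp7b1, Hsd3b7 and Slc27a5, all with larger falls in knockout mice. Cyp7b1 differed by -0.82 and -4.89 (adjusted p = 2.63e-07). Cyp8b1 was at -8.93 and -8.83, near the floor in both.

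The CYP3A rises were seen in wild-type mice: Cyp3a16 differed by 3.11 there and by -0.36 in knockout mice (adjusted p = 3.25e-05), and Cyp3a11 by 1.99, a bound, and -0.30 (adjusted p = 5.28e-05). Srgap3 and Ren1 fell in wild-type mice by 4.92 and 3.79 and differed by -0.63 and -0.08 in knockout mice (adjusted p = 4.42e-06 and 0.00425). Plin2 and Pparg, lower on the Western diet in wild-type mice, differed by 0.78 and 0.56 in knockout mice (adjusted p = 0.000271 and 0.00242). Of the 10 called cell cycle genes 0 had a called interaction (limma; 2 had an unadjusted p under 0.05), and knockout differences were positive for all 10; Mki67 differed by 2.09 and 1.4. Slc51b rose by 4.31 in wild-type mice and differed by 5.34 in knockout mice, with no interaction called (adjusted p = 0.158).

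**Figure D5:**
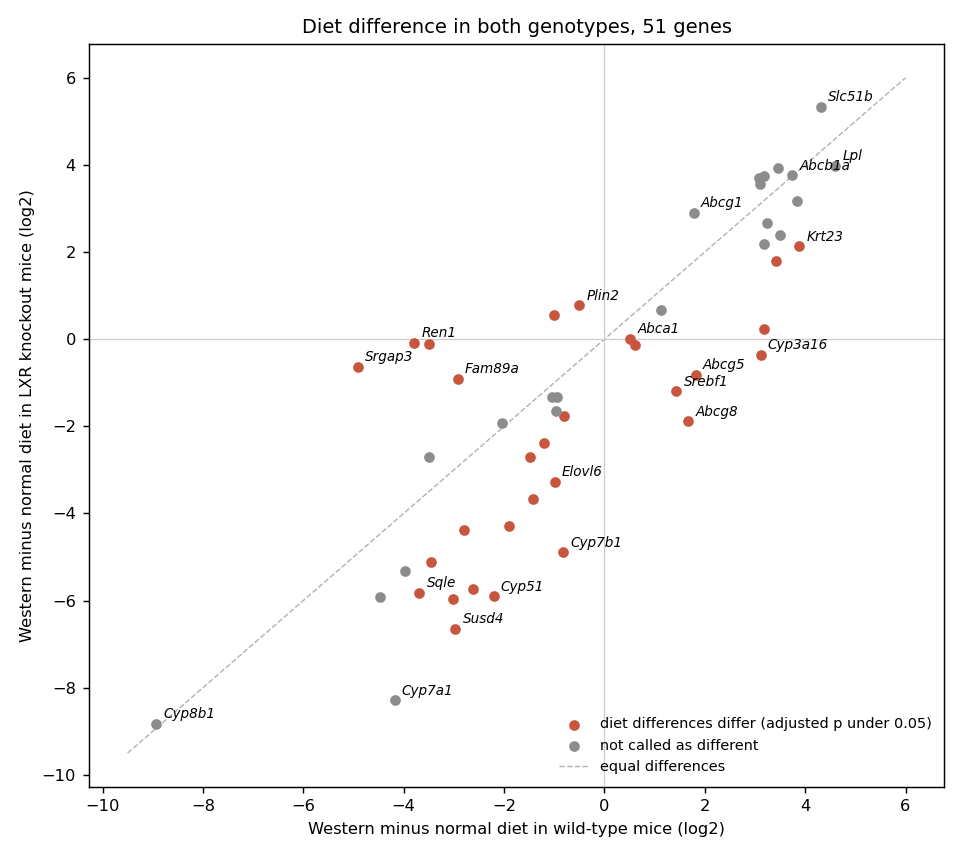
Each point is 1 of 51 genes called for diet in wild-type mice, from the panel or from the 15 largest rises and falls. The panel of sterol and lipid genes was chosen with earlier results of these data known. The x axis is the Western minus normal diet difference (log2) in wild-type mice. The y axis is that in LXR knockout mice, and the dashed line marks equal differences. Red points had a called interaction: Cyp7b1 and Cyp51 lie below the line with larger falls in knockout mice, Abcg5, Abcg8 and Srebf1 below 0 on the y axis. Lpl, Slc51b and Cyp8b1 had no called interaction and lie near the line.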

How the data were processed

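Liver RNA of 20 mice was measured on single-colour Agilent mouse arrays, 1 array per mouse; the 10 wild-type arrays answer the diet question. The deposited scanner files hold intensity values after the authors' Agilent Feature Extraction 9.5.3.1, per the file headers, in a column that is already background-corrected. The deposited series matrix holds log2 values that the authors normalized; its centring is not given in the sources used here, and it served as an alternative. The submitters' processing notes name Feature Extraction 9.5 and limma. Probe coordinates are those of mm8, per the files.

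From the intensities, spots flagged as outliers and 1639 control spots were left out (109 to 261 outlier spots per wild-type array), spots of a probe were averaged, and log2 signal was taken relative to each array's 75th percentile. Probes were named through RefSeq accessions (23374), symbols (6733) or synonyms (2919) of the gene table, and otherwise by the file's own name (8148). The probe with the highest mean over the 20 arrays stood for a gene. Testing required a signal well above background in no fewer than 4 of the 5 mice of either wild-type group (16120 of 27573 gene names). R 4.3.3 and limma 3.58.1 fitted 4 group means to 20 arrays (lmFit, eBayes), and p-values are two-sided and adjusted over all genes tested at 0.05. The error after ± is the standard error of that fit. A gene not well above background, or saturated, on every array of a group is given as a bound ("at least"). The number of mice limits the precision.

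Genes were named by rule: a panel of sterol and lipid genes, the 15 largest rises and 15 largest falls without overlap between diets, and up to 4 called members of each gene list, or 2 where none was called. Other list members are named only to show what makes up a count; a few genes are counted in the lists and not reported by name here. The members and lists were chosen with earlier results of these data known. Promoters are RefSeq windows of GRCm38.p6, from 250 bases before to 50 after a start, of which the first 250 are printed. Alternatives changed the scaling, background correction, filter, probe rule, moderation, slide or replicate block, and the mice included.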

Additional observations from a re-analysis of the deposited data

Results flagged for a closer look

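In 20 of 285 groups of 4 or 5 mice examined, 1 mouse lay far from the others of its diet; chance alone flags about 1 in 20 groups. Normal-diet mouse 4 was high for Gnmt (8.45, others 7.76 to 7.81), Fads2 (5.02, others 4.09 to 4.35) and Slco1b2 (8.23, others 7.66 to 7.81), and low for Ifi44 (-6.04, others -2.90 to -2.48) and Cyp2c54 (2.33, others 2.95 to 3.13). Western-diet mouse 4 was high for Abcb11 (8.13, others 7.85 to 7.91), Slc27a5 (7.10, others 6.89 to 6.94), Dct (1.57, others 0.13 to 0.53) and Cyp8b1 (-3.78, others -7.07 to -6.33), and low for Fabp5 (-6.76, others -4.50 to -3.95). Both were on slide 10, with 2 knockout mice. Western-diet mouse 2 was low for Abca1 (3.65, others 4.02 to 4.17) and high for Spp1 (7.27, others 4.99 to 5.27). Western-diet mouse 3 was low for Ccnb1 (-7.32, others -3.63 to -2.76) and Thrsp (2.51, others 3.96 to 4.34), and Western-diet mouse 5 high for Bhlha15 (1.92, others 1.04 to 1.20). Among the other normal-diet mice, mouse 5 was high for Ccnb1 (-5.60, others -6.97 to -6.60) and low for Cyp17a1 (0.65, others 1.38 to 1.61), mouse 2 was high for Cd5l (4.80, others 3.31 to 3.59), mouse 3 low for Ccl9 (1.90, others 2.53 to 2.69) and mouse 1 low for Usp2 (-3.62, others -2.99 to -2.77).

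Of 52 genes of the panel and of the largest changes that were called for diet in wild-type mice, 29 had a different diet response in knockout mice, not counting Dct, which was not well above background there (limma interaction, knockout minus wild-type, adjusted over all genes tested). Over all genes tested, 25.9% had one. The wild-type difference that chose the 52 genes is also a term of the interaction, so nothing is read from their share. Among sterol synthesis and its regulators the interaction was -3.69 for Cyp51, -3.11 for Idi1, -2.39 for Hmgcs1, -2.25 for Insig1, -2.13 for Sqle, -1.65 for Fdps, -1.60 for Msmo1 and -1.21 for Stard4. These are larger falls in knockout mice. For LXR targets and fatty acid genes it was -3.56 for Abcg8, -2.64 for Abcg5, -2.64 for Srebf1, -0.50 for Abca1, -2.28 for Elovl6 and -1.16 for Fads1. The bile acid enzymes Cyp7b1 and Cyp27a1 had -4.08 and -0.94, and Soat2 had -0.75. Cyp3a16 had -3.47, Cyp2c54 -2.95, Cib3 -2.96, Ddah1 -1.62, Krt23 -1.75 and Susd4 -3.68. Positive interactions, with smaller falls or a higher level in knockout mice, were 4.29 for Srgap3, 3.70 for Ren1, 3.40 for Ren2, 2.01 for Fam89a, 1.57 for Pparg and 1.28 for Plin2. The adjusted p of the 29 ranged from 2.63e-07 (Cyp7b1) to 0.0459 (Abca1).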

How the results depend on the processing

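The reported counts were 572 genes higher, 518 lower and 435 with a different response in knockout mice. Among 145 named genes checked, no called gene changed sign under any of the 27 alternatives. Other genes named in the text, such as Mvk, Rhbg and Vil1, were not checked. The cause of the changes below was not tested. With arrays scaled to their median the counts were 363, 180 and 182, and with normexp background correction 69, 87 and 50. Without a filter on dim probes 278 called genes had a different response, and with array weights 748. Leaving out single mice gave 354 to 574 higher, 326 to 564 lower and 287 to 395 with a different response. Single omissions moved a count by over 1.5 times in these cases: without normal-diet mouse 4, 339 were lower; without Western-diet mouse 1, 379 were higher and 288 had a different response; without Western-diet mouse 2 the counts were 354, 326 and 287. Leaving out Western-diet mice 1 and 2 together, an alternative chosen after seeing the data, gave 232, 215 and 179. Of the 145 named genes checked, 103 were called, and 39 of these under every alternative. With slide as a fixed block 619 were higher and 675 lower.

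Mice of 1 number on both diets deviated together with r of 0.02 to 0.51, and 3 of 5 normal-diet mice correlated best with their own number. The 4 pairs that shared a slide had r of 0.18, 0.43, 0.51 and 0.40, and the pair on separate slides had 0.02. No label says that a number marks a pair, and the main fit has no term for number or slide. Deviations shared within a slide are therefore not taken out of it. With the replicate block on 10 wild-type arrays, 515 genes were higher and 717 lower. Of the 145 named genes checked, 22 calls were lost, among them Ces2a, Slco1a4 and Cyp2c37, and 5 gained, among them Slc10a1. With the block on 20 arrays, 696 were higher and 997 lower, and 633 called genes had a different response. There, 4 named calls were lost and 5 gained.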

Other observations

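Some genes of hepatocytes around the central vein were lower on the Western diet. Of 17 such genes tested, 11 fell and 0 rose (background 3.21% and 3.55%), with a median of -1.22. The set was chosen after values of these data were seen, so it has no test, and nothing is read from these counts. Besides Oat and Glul, Rhbg, an ammonium transporter, fell from 2.25 ± 0.20 to -0.33 ± 0.57 (mean ± SD, n = 5 each; difference -2.58 ± 0.25, adjusted p = 5.14e-06, limma). The glutamate transporter Slc1a2 fell from 2.34 ± 0.34 to 0.04 ± 0.87 (difference -2.30 ± 0.49, adjusted p = 0.00674, limma). The Wnt pathway genes Lgr5, Sp5 and Notum fell by 1.59 ± 0.35, 1.42 ± 0.36 and 0.87 ± 0.22. Cldn2, a tight junction protein, fell by 1.14 ± 0.14, the receptors Ahr and Avpr1a by 1.11 ± 0.20 and 1.41 ± 0.28, and Cyp1a2 by 0.97 ± 0.23. Axin2, Tbx3, Cyp2e1, Nkd1, Znrf3 and Rnf43 did not pass; Cyp2e1 was at -1.07 ± 0.33 (adjusted p = 0.0558). Of 9 genes of hepatocytes around the portal vein, chosen the same way, Cdh1 rose by 0.72 ± 0.14 and Gls2 fell, with a median of -0.28. The perivenous set was not tested against the periportal one.

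Of 8 genes of the absorptive brush border, also chosen after their values were seen, 4 rose and 1, Pls1, fell (background 3.55% and 3.21%). The set has no test, and nothing is read from these counts. Cdhr2 and Slc5a1 entered only through the Western-diet group, and Pls1 only through the normal-diet group. Vil1, an actin bundler of microvilli, rose from -4.53 ± 0.54 to -1.53 ± 0.29 (mean ± SD, n = 5 each; difference 3.0 ± 0.30, adjusted p = 6.14e-06, limma). Slc5a1, a sodium-glucose transporter, rose by 2.44 ± 0.40 from a level that was well above background on 1 of 5 normal-diet arrays. Cdhr5 rose by 0.75 ± 0.18. Cdhr2 was not well above background on any normal-diet array.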
